A study of Mus musculus with 29 samples.

Results

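Secreted Wnt antagonists and a pair of Frizzled receptors were followed in mouse hearts through the induction of heart failure (HF) and the recovery from it. The 10 genes were taken by symbol from the deposited expression table of 29,955 genes: the secreted Frizzled-related proteins Sfrp1, Sfrp2, Frzb, Sfrp4 and Sfrp5, the Wnt inhibitory factor Wif1, the Dickkopf genes Dkk2 and Dkk3, and the receptors Fzd1 and Fzd2. All 10 were in the table, and 8 had a mean of at least 0.5 FPKM (fragments per kilobase of transcript, scaled to the mapped fragments of the library) over the libraries, the minimum for testing, which 12,759 genes passed. Sfrp4 and Dkk2 did not.

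Wnt proteins are secreted lipid-modified ligands that bind Frizzled receptors on the cell surface, together with the co-receptors Lrp5 and Lrp6 in the branch that stabilises β-catenin, and with other partners in the branches that do not use β-catenin. Secreted Frizzled-related proteins carry a cysteine-rich domain like that of the receptors and can hold Wnt ligands away from them. Wif1 binds the ligands through a domain of another kind, whereas Dickkopf proteins such as Dkk2 act on the co-receptors, and Dkk3 is a divergent member of that family that does not act on them in the same way. In the heart, Wnt signalling is known for its roles in development and for its reappearance after injury and in fibrosis.

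RNA sequencing values of 24 libraries were used, from C57BL6 mice that entered the protocol at 3 months of age. To induce HF, mice drank water with L-NAME (0.3 mg/ml), which blocks the synthesis of nitric oxide, and salt (NaCl, 1%) for 5 weeks, and received angiotensin II at 0.7 mg/kg/day from a 28-day pump placed 1 week after the start; thereafter the hearts recovered without treatment. The groups were HF week 3 (2 libraries), HF week 5 (3), Recovery weeks 7 (2), 9 (2), 11 (3), 13 (2) and 19 (5), in which induction had ended at week 5, and untreated Control week 19 (5). Control week 19 is the age-matched control of Recovery week 19, so that age and HF cannot be told apart where an HF group is set against it. HF induced by drugs in this way is a model of non-ischaemic failure, and the male mice were of a single inbred strain. The labels give the tissue as whole heart and whole ventricle, the methods as apical portions.

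The absolute depth of the libraries is unknown from FPKM, and the error given throughout is the spread between libraries. HF week 3 library 1 stood apart in detection, with 12,816 genes above 0 where every other library had between 16,339 and 18,091. Myh6, the main myosin heavy chain gene of the adult mouse heart, was listed at 0 in all 13 libraries of the control, HF week 5 and Recovery week 19 groups, and at 37546 to 316195 FPKM in the 11 libraries of HF week 3 and Recovery weeks 7 to 13. The 10 highest genes took 14.6% to 18.8% of the summed FPKM in the former and 19.8% to 37.5% in the latter. Comparisons of HF week 3 or of Recovery weeks 7 to 13 with HF week 5 or Control week 19 therefore cross this division, as does the test across all groups, and its part in them was not tested, while the remaining comparisons do not. With each library centred on its median, the members called in HF week 3 against Control week 19 (5) and HF week 5 against HF week 3 (3) were as many as without centring. In Recovery weeks 7 to 13 against HF week 5 the number went from 3 to 2, without Frzb. The log2 fold change of Frzb there was -0.66 with centring and -0.74 without it (limma, adjusted p = 0.0582 and 0.0379). Markers of other tissue stood apart in part of the HF libraries. The summed FPKM of 6 atrial cardiomyocyte markers was 7740 and 14053 in HF week 3 and 39736, 417 and 17.0 in HF week 5 libraries 1, 2 and 3, against 9.95 to 11.6 in Control week 19 and 6.91 to 16.4 in the recovery groups. Against Control week 19, 3 of the 5 of these markers tested were higher in HF week 5 (the atrial contractile genes Myl7 and Myl4, and Sln), Kcnj3 was lower, and Bmp10 was listed at 0 in both HF week 3 libraries. The sum of 6 epicardial and mesothelial markers was 73.4 and 237 in HF week 3, 84.6, 32.2 and 11.6 in HF week 5 and 1.99 to 3.30 in Control week 19. That of 3 adipocyte markers was 11.9 and 12.8 in HF week 3, 25.4, 33.6 and 0.224 in HF week 5 and at most 0.563 in the other libraries. In bulk tissue, a change in the number of cells of a type and a change in RNA per cell cannot be told apart. The members' calls in HF week 5 are therefore given with and without library 1 of that group, and the part of such tissue in the results was not tested.

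As context for a later contrast within the family, the 250 bases upstream of the start of Sfrp2 and Sfrp5 are shown, since the levels of these genes ran in opposite directions across most of the libraries. The sequences are those of RefSeq on GRCm38.p6, a later build than the authors' MGSCv37, for Sfrp2 at chr3:83766071-83766320 on the plus strand and for Sfrp5 at chr19:42202253-42202502 on the minus strand, each printed 5′ to 3′ toward the gene. Neither window overlaps an annotated exon. Capitals mark a GC box (GGGCGG, either strand).
Sfrp2: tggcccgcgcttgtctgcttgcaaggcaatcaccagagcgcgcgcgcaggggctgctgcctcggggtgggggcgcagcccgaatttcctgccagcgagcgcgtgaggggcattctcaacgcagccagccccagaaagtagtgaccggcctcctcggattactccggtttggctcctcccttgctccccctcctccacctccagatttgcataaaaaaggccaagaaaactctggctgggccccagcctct
Sfrp5: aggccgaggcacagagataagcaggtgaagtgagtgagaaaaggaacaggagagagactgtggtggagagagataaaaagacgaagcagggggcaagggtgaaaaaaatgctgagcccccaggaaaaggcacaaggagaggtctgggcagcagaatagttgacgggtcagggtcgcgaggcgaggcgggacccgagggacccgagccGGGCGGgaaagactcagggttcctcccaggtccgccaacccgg
Of the 10 genes, 6 had an entry among these promoters. A core motif of the TCF/LEF factors that act with β-catenin (the letters CTTTG followed by AA, AT, TA or TT, on either strand) was in none of the 6 windows and in 14.8% of 32,851 windows of the same length. The GC box of Sfrp5, 43 to 38 bases before the start, is a match that 32.7% of all windows share. These matches describe the sequence only, and no binding was measured.

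Levels in the control heart differed widely among the genes on the FPKM scale, which takes transcript length into account. Sfrp1 was the highest of the 10 in Control week 19 with 3.49 ± 0.453 FPKM (mean ± SD, n = 5), and its lowest library (2.75) was above the highest of Sfrp2 (2.20). Frzb (1.63 ± 0.368), Sfrp2 (1.60 ± 0.469), Fzd1 (1.30 ± 0.274), Wif1 (1.08 ± 0.414), Sfrp5 (1.02 ± 0.258) and Fzd2 (0.985 ± 0.132) followed, and neighbours in this order overlapped in their libraries. Dkk3 was at 0.478 ± 0.154, and Sfrp4 and Dkk2 at 0.0754 ± 0.0397 and 0.0729 ± 0.0400. Over all 24 libraries the order changed, with Dkk3 highest at a mean of 10.2 and Sfrp1 next at 5.71, but the place of Dkk3 rested on HF week 5 library 1: without it the means were 4.80 and 5.63, and the median of Dkk3 over the 24 libraries was 0.773. The mean of Sfrp1 exceeded that of 50.4% of the genes tested, that of Sfrp2 34.2%, and that of Wif1 17.1%, so that most of these antagonists were transcripts of low abundance in this tissue.

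**Figure D1:**
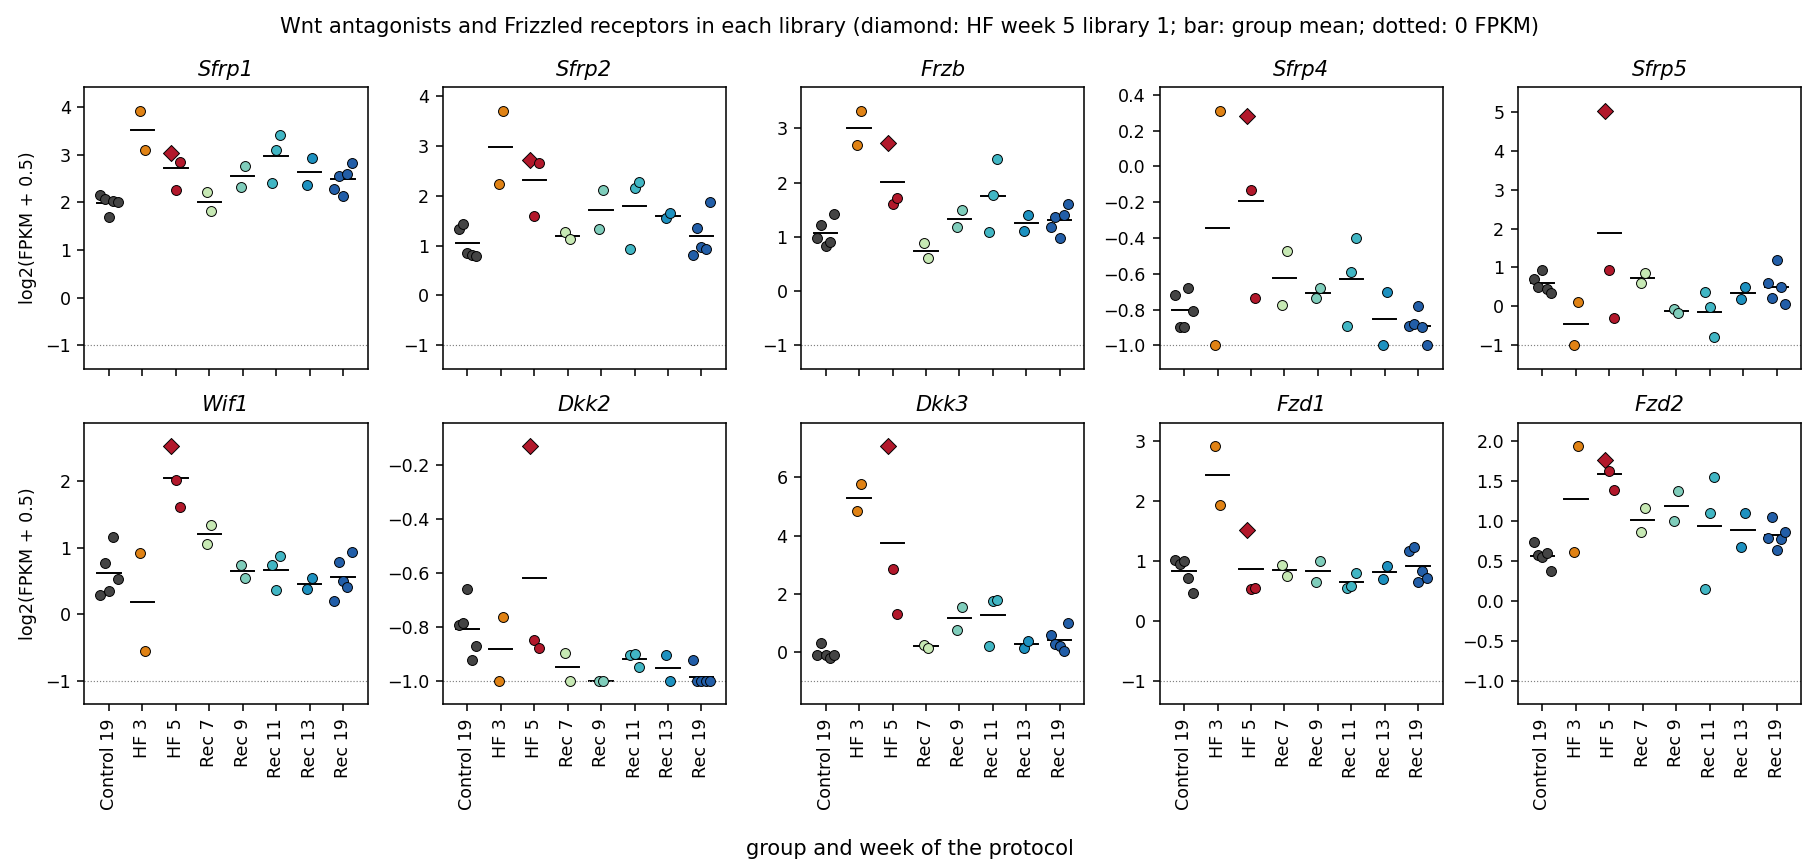
Each point is the log2(FPKM + 0.5) of a gene in a library, by group and week, with the group mean as a bar. Wif1 is highest in all 3 HF week 5 libraries, Dkk3 reaches 134 FPKM in HF week 5 library 1 (diamond), and Fzd1 is highest in both HF week 3 libraries.

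Across the 8 groups, 6 of the 8 genes tested differed in limma's moderated F test at an adjusted p under 0.05 (Benjamini-Hochberg over all genes tested), where 38.6% of all genes tested did so. They were Dkk3 (adjusted p = 0.000716), Frzb (0.00106), Fzd1 (0.00293), Wif1 (0.00348), Sfrp1 (0.00423) and Sfrp2 (0.0108). Fzd2 (adjusted p = 0.0989) and Sfrp5 (0.310) did not pass. Without both HF week 3 libraries and HF week 5 library 1 the number was 3 (Sfrp1, Wif1 and Dkk3), where 14.2% of all genes tested differed.

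The comparison of HF week 5 with Control week 19 asks which of these genes stood at another level in the failing heart. In limma on log2(FPKM + 0.5), 6 of the 8 genes tested were higher in HF at an adjusted p under 0.05 and none was lower, where 11.6% of all genes tested were higher and 12.4% lower. The median log2 fold change was 1.15 over the 8 genes and 0.043 over all genes tested. By role, 3 of the 4 secreted Frizzled-related genes tested rose (Sfrp1, Sfrp2, Frzb), as did Wif1, Dkk3 and the receptor Fzd2, while Sfrp5 and the receptor Fzd1 did not pass the test. In the exact two-sided permutation test of single genes over 56 splits, those 6 genes had p = 0.0179, the smallest this test can give, against 0.357 for Sfrp5 and 0.839 for Fzd1. In each of the 6, all HF week 5 libraries were above all controls. The share of all genes that reach this p was not computed, so the count has no background. Without HF week 5 library 1, Wif1 and Dkk3 alone of the 8 were called, where 4.21% of all genes tested were higher and 10.7% differed in either direction. With HF week 3 left out of the fit as well, Sfrp2 (adjusted p = 0.0419) and Fzd2 (0.0146) were called beside Wif1 and Dkk3, where 20.2% of all genes tested differed.

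**Figure D2:**
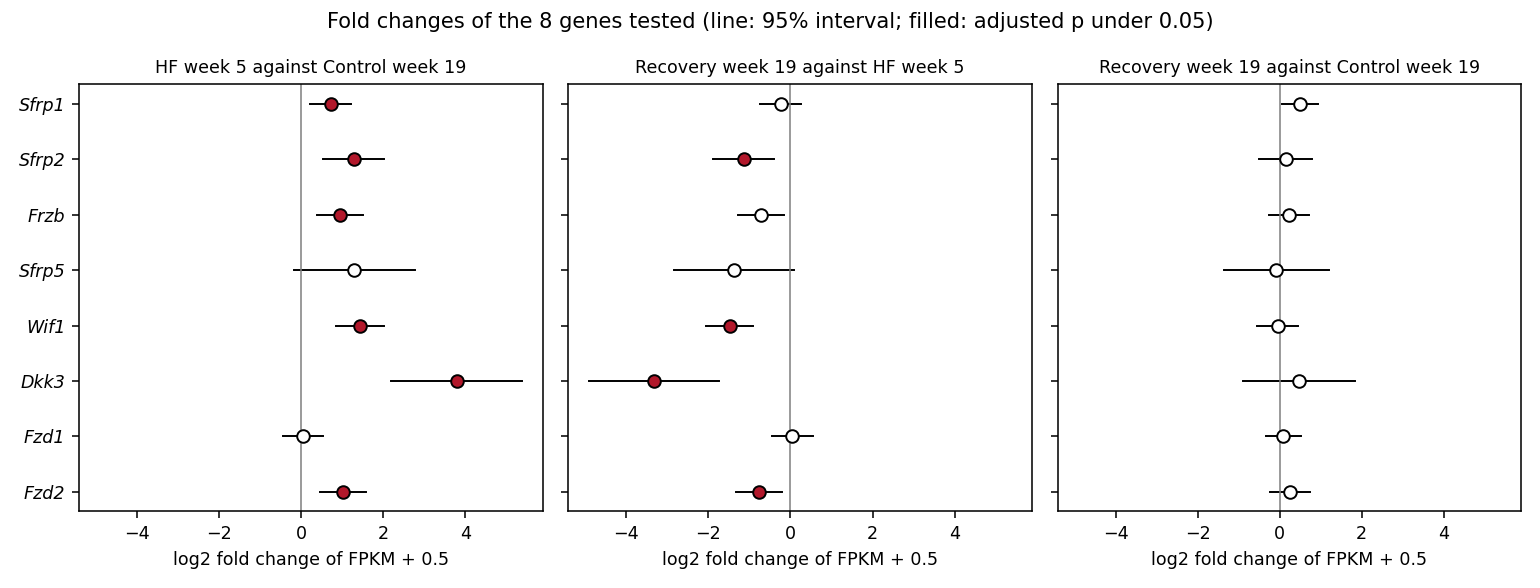
Log2 fold changes of FPKM + 0.5 for the 8 genes tested are plotted with their 95% intervals in 3 comparisons, filled where the adjusted p is under 0.05. In HF week 5 against Control week 19, 6 points are filled on the right of 0, in Recovery week 19 against HF week 5 there are 4 on the left, and in Recovery week 19 against Control week 19 none is filled.

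Wif1, the inhibitor that binds Wnt ligands directly, was at 5.26, 3.55 and 2.56 FPKM in the 3 HF week 5 libraries and at 0.729, 1.21, 0.773, 1.74 and 0.941 in the 5 controls. All HF week 5 libraries were above all controls, and their order was that of their atrial (39736, 417 and 17.0) and epicardial sums (84.6, 32.2 and 11.6). Over the 21 libraries without HF week 3 and HF week 5 library 1, the log2 level of Wif1 ran with that of the epicardial sum with a Pearson r of 0.769, the atrial sum with 0.641 and the adipocyte sum with 0.602, against 0.257, 0.277 and 0.396 over all 24, as a description. Wif1 rose by 1.43 on the log2(FPKM + 0.5) scale, which understates the change of low genes (SE 0.279, adjusted p = 0.00145 in limma), with group means of 3.79 and 1.08 FPKM. It was called in all 18 alternative fits of this comparison, with log2 fold changes from 1.19 to 1.73 and adjusted p from 0.000159 to 0.0190. In HF week 3 the 2 libraries were at 1.39 and 0.184, so that Wif1 was not high in that group: the log2 fold change against Control week 19 was -0.43 (SE 0.320, adjusted p = 0.265). Their atrial sums were 7740 and 14053 and their epicardial sums 73.4 and 237. The library with the highest epicardial sum thus held the lowest Wif1 of all 24. Without HF week 3 library 2 that value was 0.30, and without library 1 it was -1.17 with an adjusted p of 0.0126. Wif1 was the gene of this set that differed between the HF time points in favour of week 5, by 1.87 on the log2 scale (SE 0.349, adjusted p = 0.00304, and 0.00044 to 0.533 over 13 alternatives), in a comparison in which 21.4% of all genes tested differed in either direction.

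After the end of induction, Wif1 was at 1.59 and 2.03 FPKM in Recovery week 7 and at 0.788 to 1.34 in Recovery weeks 9, 11 and 13 together. The 5 libraries of Recovery week 19 were at 0.646, 1.23, 0.920, 0.827 and 1.41, all below the lowest HF week 5 library. Wif1 fell by 1.48 on the log2 scale between HF week 5 and Recovery week 19 (SE 0.279, adjusted p = 0.00108) and by 1.31 between HF week 5 and the mean of Recovery weeks 7 to 13 (SE 0.256, adjusted p = 0.00145). Without HF week 5 library 1 these differences were -1.25 (adjusted p = 0.0141) and -1.07 (0.0253), the highest adjusted p of 18 and 22 alternatives. Against Control week 19 the difference in Recovery week 19 was -0.05 on the log2 scale, with a 95% interval of -0.56 to 0.45.

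Dkk3, the divergent Dickkopf gene that is also expressed in atrial tissue, showed the largest spread of the 8 genes tested. Its differences were the largest of the 8 where HF was compared with Control week 19 or with recovery. They were not the largest between the HF time points or in Recovery week 19 against Control week 19. It was at 134, 6.68 and 1.98 FPKM in HF week 5 libraries 1, 2 and 3, at 28.2 and 53.8 in HF week 3, and at 0.423, 0.750, 0.432, 0.363 and 0.423 in the controls. All 5 HF libraries were above all controls, and the order of the HF week 5 libraries was that of their atrial marker sums (39736, 417 and 17.0). The rise in HF week 5 was 3.79 on the log2 scale (SE 0.759, adjusted p = 0.00176). Without library 1 it was 2.12 (SE 0.416, adjusted p = 0.00365), and over 18 alternative fits the adjusted p ran from 0.000131 to 0.0293. HF week 5 library 3, at 1.98 FPKM of Dkk3, had an atrial sum of 17.0 and an epicardial sum of 11.6, both above the controls.

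Dkk3 was back under 1 FPKM in Recovery weeks 7 (0.683 and 0.597) and 13 (0.601 and 0.797), but at 1.20 and 2.43 in Recovery week 9 and 0.660, 2.90 and 2.98 in Recovery week 11, while the atrial sums of these libraries stayed between 6.91 and 16.4. The fibroblast sums of the Recovery week 11 libraries were 374, 443 and 620, in the order of their Dkk3, and their atrial sums were 9.67, 14.5 and 13.8. The fibroblast sums were 317 and 360 in Recovery week 9. In Recovery week 13 they were 348 and 458, although Dkk3 was under 1 FPKM in both libraries. Recovery week 19 libraries were at 1.01, 0.708, 0.655, 0.531 and 1.50, within or above the range of the controls. Dkk3 fell by 3.32 on the log2 scale from HF week 5 to Recovery week 19 (SE 0.759, adjusted p = 0.00420), and by 1.65 without HF week 5 library 1 (adjusted p = 0.0159, within 0.000297 to 0.0498 over 18 alternatives). To Recovery weeks 7 to 13 it fell by 3.03 (SE 0.696, adjusted p = 0.00458), and by 1.36 without that library (adjusted p = 0.0344). Over the 24 libraries its log2 level ran with that of the atrial sum with a Pearson r of 0.956, and with r = 0.676 over the 21 libraries without HF week 3 and HF week 5 library 1, as a description. The values over the 24 and the 21 libraries were 0.871 and 0.639 with the adipocyte sum, 0.885 and 0.496 with the epicardial sum, and 0.685 and 0.505 with the fibroblast sum, and the part of these cell types in the level of Dkk3 was not tested.

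**Figure D3:**
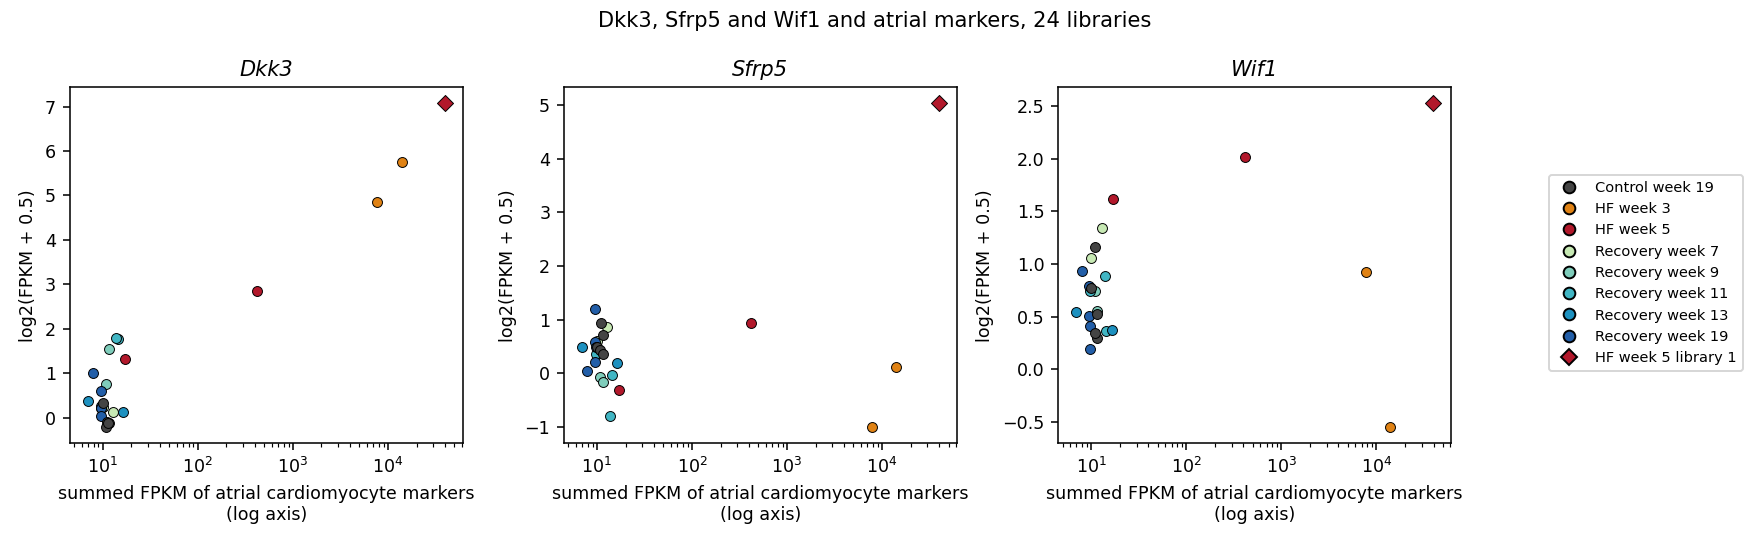
The log2(FPKM + 0.5) of Dkk3, Sfrp5 and Wif1 in each of 24 libraries is plotted against the summed FPKM of 6 atrial markers on a log axis. Dkk3 is highest where the sum is highest, Sfrp5 is high in HF week 5 library 1 (32.1 FPKM) but at 0 and 0.582 FPKM in HF week 3, and Wif1 is above all other libraries in the 3 of HF week 5, at 5.26, 3.55 and 2.56 FPKM in the order of their sums of 39736, 417 and 17.0. In HF week 3, with sums of 7740 and 14053, Wif1 is at 1.39 and 0.184 FPKM.

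Sfrp1, Sfrp2 and Frzb, which encode related ligand-binding antagonists, shared much of their pattern across the libraries. Sfrp1 was at 7.64, 4.29 and 6.70 FPKM in HF week 5, at 14.6 and 8.10 in HF week 3, and at 3.97, 3.67, 2.75, 3.56 and 3.51 in the controls. Every HF library was above every control. The rise in HF week 5 was 0.72 on the log2 scale (SE 0.240, adjusted p = 0.0350), but it passed the test in 3 of the 8 fits that each left out a library: the adjusted p was 0.197 without HF week 5 library 1, 0.109 without library 3, and 0.0519, 0.0817 and 0.0571 without control libraries 2, 3 and 4. It was 0.0547 with median centring, and it ran from 0.0140 to 0.197 over all 18 alternatives. In HF week 3 Sfrp1 was 1.52 higher on the log2 scale than in Control week 19 (SE 0.275, adjusted p = 0.000190), which held in all 15 alternatives.

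Sfrp2 was at 6.06, 2.51 and 5.81 FPKM in HF week 5, at 4.22 and 12.5 in HF week 3, and at 2.02, 2.20, 1.30, 1.26 and 1.22 in the controls. The lowest HF week 5 library stood little above the highest control. Sfrp2 rose by 1.28 on the log2 scale in HF week 5 (SE 0.357, adjusted p = 0.0142), with an adjusted p of 0.0978 without HF week 5 library 1 and 0.0647 without library 3, between 0.00506 and 0.0978 over 18 alternatives. In HF week 3 the rise was 1.93 (SE 0.408, adjusted p = 0.000769), and 1.20 without HF week 3 library 2 (adjusted p = 0.0366, the highest of 15 alternatives of which the lowest was 0.000526).

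Frzb, also known as the third secreted Frizzled-related protein, was at 6.15, 2.52 and 2.79 FPKM in HF week 5, at 5.96 and 9.52 in HF week 3, and at 1.47, 1.84, 1.28, 1.37 and 2.17 in the controls. HF week 5 library 1 was the highest of its group, at the level of HF week 3. Frzb rose by 0.94 on the log2 scale in HF week 5 (SE 0.271, adjusted p = 0.0165), and the value was 0.59 with an adjusted p of 0.175 without library 1, the highest of 18 alternatives of which the lowest was 0.0105. The rise in HF week 3 was 1.94 (SE 0.311, adjusted p = 6.54e-05).

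**Figure D4:**
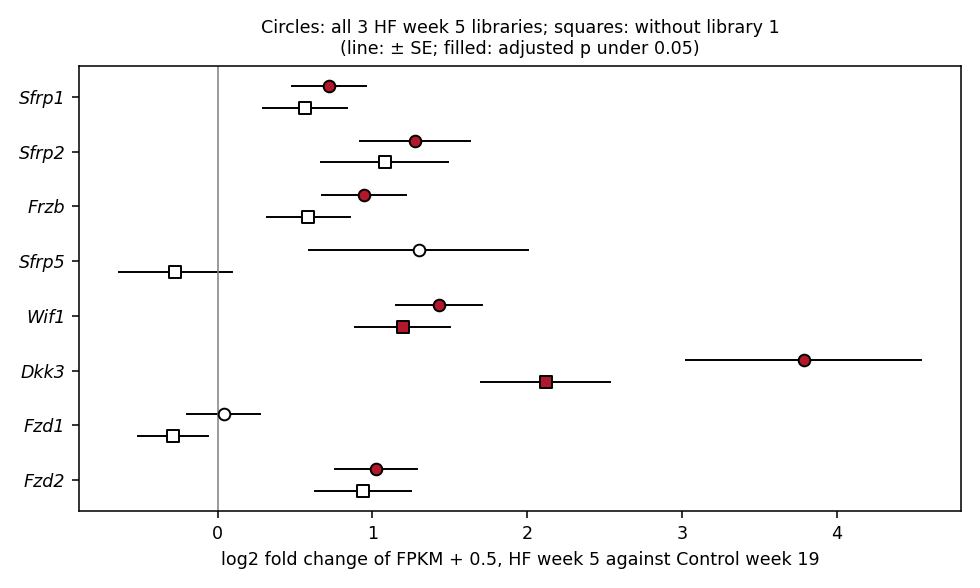
Log2 fold changes of HF week 5 against Control week 19, with standard errors, are plotted for all 3 HF week 5 libraries (circles) and without library 1 (squares), filled where the adjusted p is under 0.05. Sfrp1, Sfrp2, Frzb and Fzd2 stay above 0 but are no longer filled in this fit, which keeps HF week 3, Wif1 and Dkk3 are filled in both, and Sfrp5 moves from 1.30 to -0.27.

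The levels of these 3 genes in recovery were as follows, and no difference between the genes was tested. Sfrp2 was at 1.25, 2.07, 1.45, 1.41 and 3.16 FPKM in Recovery week 19 and fell by 1.13 on the log2 scale from HF week 5 (SE 0.357, adjusted p = 0.0262). That fall did not pass without HF week 5 library 1 (adjusted p = 0.144) or 3 (0.105), nor without Recovery week 19 library 1 (0.0534), 3 (0.0521) or 4 (0.0537), within a range of 0.00948 to 0.144 over 18 alternatives. Frzb, at 1.76, 2.07, 1.47, 2.14 and 2.54, differed from HF week 5 by -0.71 (SE 0.271, adjusted p = 0.0618), and it passed without HF week 5 library 2 (adjusted p = 0.0349) and without Recovery week 19 library 5 (0.0491). Its fall of 0.74 from HF week 5 to Recovery weeks 7 to 13 did pass (SE 0.248, adjusted p = 0.0379), but not without HF week 5 library 1 (0.376), Recovery week 7 library 2 (0.0674), Recovery week 9 library 1 (0.0682) or Recovery week 13 library 1 (0.0698). It did not pass with median centring (-0.66, adjusted p = 0.0582) or quantile normalization (-0.64, adjusted p = 0.0666) either. The adjusted p of this fall ran from 0.0140 to 0.376 over 22 alternatives.

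Sfrp1 stood highest of these genes in recovery. Its 5 Recovery week 19 libraries were at 4.37, 5.36, 3.89, 5.54 and 6.61 FPKM, so that 4 of 5 were above the highest control (3.97), and its difference from HF week 5 was -0.23 on the log2 scale with a 95% interval of -0.73 to 0.27 (adjusted p = 0.512). Recovery week 11 libraries were at 4.75, 8.11 and 10.1, of which the latter 2 were above all HF week 5 libraries. Set against Control week 19, the difference in Recovery week 19 was 0.49 on the log2 scale, with a 95% interval of 0.05 to 0.92 and an unadjusted limma p of 0.0292, but an adjusted p of 1.

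The sum of fibroblast markers ran with the levels of these genes across the libraries. The summed FPKM of 6 fibroblast markers was 221 to 323 in Control week 19, 516 and 555 in HF week 3, 620, 314 and 544 in HF week 5 libraries 1, 2 and 3, 374, 443 and 620 in Recovery week 11, and 283 to 425 in Recovery week 19. Against Control week 19, 4 of the 6 markers rose in HF week 5 (Col1a2, Pdgfra, Dcn and Lum). From HF week 5 to Recovery week 19 only Lum of the 6 was called lower, and to Recovery weeks 7 to 13 none was. Dcn made up most of the sum, with a mean of 271 FPKM over the 24 libraries, followed by Col1a2 with 33.1. The sum therefore mainly follows Dcn. Across the 24 libraries the log2 level of Sfrp1 ran with the log2 of this sum with a Pearson r of 0.885, that of Frzb with 0.838 and that of Sfrp2 with 0.805. Over the 21 libraries without HF week 3 and HF week 5 library 1 the values were 0.920, 0.829 and 0.755. Among themselves, Sfrp1 and Frzb had an r of 0.825, Sfrp2 and Frzb of 0.864 and Sfrp1 and Sfrp2 of 0.741 over 24 libraries, and of 0.860, 0.722 and 0.778 over the 21. Whether the share of fibroblasts or of other cells set these levels was not tested.

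Sfrp5, whose upstream bases are shown above, took another course than its relatives. It was at 32.1, 1.42 and 0.308 FPKM in HF week 5, at 0 and 0.582 in HF week 3, and at 1.14, 0.912, 1.41, 0.856 and 0.778 in the controls. HF week 5 library 1 alone was high, and the other HF libraries lay around or below the controls. The log2 fold change in HF week 5 was 1.30 (SE 0.705, adjusted p = 0.192), and -0.27 without library 1 (SE 0.364, adjusted p = 0.689). Without HF week 5 library 3 it was 2.40 with an adjusted p of 0.0146, the lowest of the 18 alternatives and the only one in which Sfrp5 passed. Sfrp5 in Recovery week 19, at 1.01, 0.656, 1.79, 0.914 and 0.536, overlapped the controls and HF week 5.

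Outside HF week 5 library 1, Sfrp5 was low where its relatives were high. Recovery week 11 library 3, which held the highest Sfrp1 (10.1) and Frzb (4.88) of the recovery libraries, held 0.0783 FPKM of Sfrp5, the lowest of them. Over the 21 libraries without HF week 3 and HF week 5 library 1, the Pearson r of the log2 level of Sfrp5 was -0.771 with Sfrp1, -0.748 with Frzb, -0.710 with Sfrp2 and -0.769 with the summed fibroblast markers. Over all 24 libraries these Pearson values were -0.215, 0.050, 0.009 and -0.0004, whereas Spearman's rho, which a single high library moves less, was -0.604 with Sfrp1, -0.510 with Frzb and -0.445 with Sfrp2. These correlations are descriptions over libraries that share groups and the scaling of FPKM to each library.

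**Figure D5:**
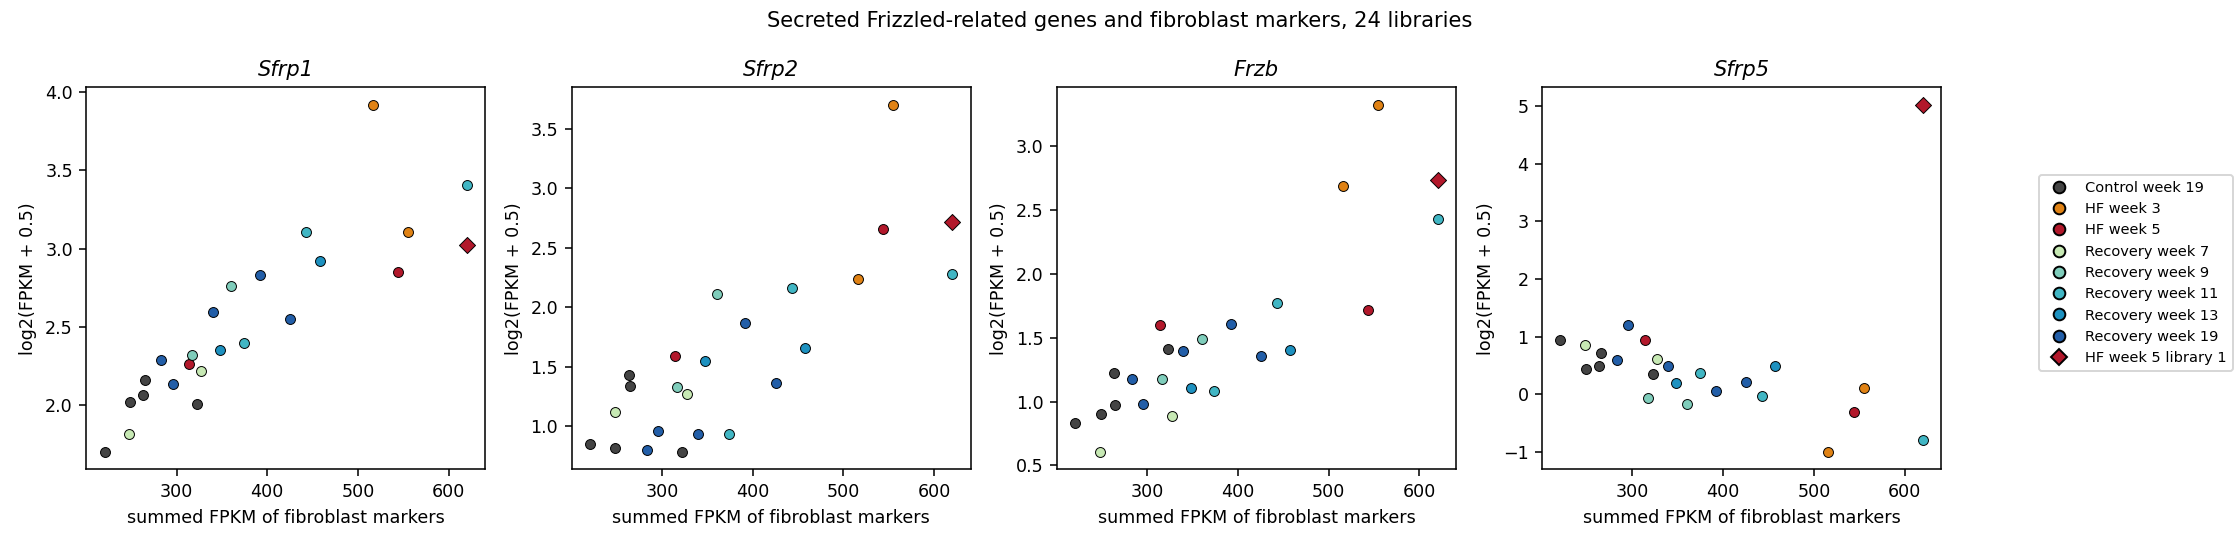
The log2(FPKM + 0.5) of Sfrp1, Sfrp2, Frzb and Sfrp5 in each of 24 libraries is plotted against the summed FPKM of 6 fibroblast markers. Sfrp1, Sfrp2 and Frzb are higher in libraries with a higher sum, whereas Sfrp5 is lower in them except for HF week 5 library 1 (diamond) at 32.1 FPKM.

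The receptors Fzd1 and Fzd2 are close relatives among the Frizzled proteins. Fzd1 was at 7.02 and 3.34 FPKM in HF week 3, at 2.38, 0.950 and 0.965 in HF week 5, and at 1.52, 1.43, 1.50, 1.15 and 0.884 in the controls. Both HF week 3 libraries were above every other library in use. Fzd1 was 1.60 higher on the log2 scale in HF week 3 than in Control week 19 (SE 0.269, adjusted p = 0.000103), and fell by 1.56 from HF week 3 to HF week 5 (SE 0.293, adjusted p = 0.00315). That fall did not pass without HF week 3 library 1, with a value of -1.07 and an adjusted p of 0.136. With the fit restricted to the groups compared, the adjusted p was 0.533, the highest of 13 alternatives of which the lowest was 4.17e-05. In HF week 5 against Control week 19 the difference was 0.04, with a 95% interval of -0.45 to 0.53, and -0.29 without library 1.

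Fzd2 was at 2.88, 2.58 and 2.11 FPKM in HF week 5, at 1.03 and 3.32 in HF week 3, and at 1.16, 0.989, 0.965, 1.02 and 0.794 in the controls. The 3 HF week 5 libraries were close together and all above the controls, whereas the HF week 3 libraries stood on either side of them, one of them the highest of all 24. The order of the HF week 5 libraries was that of their atrial (39736, 417 and 17.0) and epicardial sums (84.6, 32.2 and 11.6). Over the 21 libraries without HF week 3 and HF week 5 library 1, r was 0.489 with the atrial and 0.429 with the epicardial sum. It was 0.489 with the adipocyte and 0.508 with the fibroblast sum, and the part of these cell types was not tested. HF week 5 differed from HF week 3 by 0.32 on the log2 scale (95% interval -0.38 to 1.01, adjusted p = 0.494). Fzd2 rose by 1.02 on the log2 scale in HF week 5 (SE 0.266, adjusted p = 0.00943), and the value was 0.94 with an adjusted p of 0.0589 without library 1, the highest of 18 alternatives of which the lowest was 0.00184. Recovery week 19 libraries were at 1.22, 1.58, 1.06, 1.21 and 1.32, all below HF week 5, and fell by 0.77 (SE 0.266, adjusted p = 0.0416). The fall in Recovery week 19 passed in 1 of the 8 fits that each left out a library, with adjusted p from 0.0477 to 0.159. The libraries without which it did not pass were HF week 5 libraries 1 (adjusted p = 0.159), 2 (0.0909) and 3 (0.0545) and Recovery week 19 libraries 1 (0.0627), 3 (0.0798), 4 (0.0694) and 5 (0.0526), and it did not pass with median centring (0.0562), within 0.0108 to 0.159 over 18 alternatives. In these fits the log2 fold change ran from -0.87 (without HF week 5 library 3) to -0.68 (without library 1), and it was -0.71 with median centring.

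Sfrp4 and Dkk2, both below the minimum for testing, were near the floor of the measurement. Sfrp4 was at 0.715, 0.411 and 0.101 FPKM in HF week 5, at 0 and 0.740 in HF week 3, at 0.0370 to 0.124 in the controls and at 0 to 0.0814 in Recovery week 19. Dkk2 was at 0.413, 0.0554 and 0.0443 in HF week 5, at 0 and 0.0894 in HF week 3, at 0.0272 to 0.132 in the controls, and listed at 0 in 4 of 5 Recovery week 19 libraries and in both of Recovery week 9. For either gene the highest HF week 5 value was that of library 1. In a fit without the filter on low values, in which 7.31% of 22,107 genes were lower in Recovery week 19 than in HF week 5, Sfrp4 differed by -0.70 on the log2 scale (adjusted p = 0.0458) and Dkk2 by -0.37 (adjusted p = 0.0431), and neither passed in HF week 5 against Control week 19 (adjusted p = 0.0828 and 0.318). Differences on the log2(FPKM + 0.5) scale understate ratios at such low levels.

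In HF week 3 against Control week 19, 5 of the 8 genes tested were higher (Sfrp1, Sfrp2, Frzb, Dkk3 and Fzd1) and none lower, where 23.1% of all genes tested were higher. Dkk3 was 5.35 higher on the log2 scale (SE 0.870, adjusted p = 7.38e-05). Fzd2 differed by 0.71 (SE 0.305, adjusted p = 0.0594), which became 1.37 with an adjusted p of 0.00443 without library 1 and 0.05 with an adjusted p of 0.907 without library 2. Sfrp5 differed by -1.03 (SE 0.808, adjusted p = 0.296). From HF week 3 to HF week 5, Frzb fell by 0.99 on the log2 scale (SE 0.339, adjusted p = 0.0436), but it passed in 1 of the 5 fits that each left out a library, with adjusted p of 0.167 and 0.185 without HF week 3 libraries 1 and 2 and 0.144 and 0.123 without HF week 5 libraries 2 and 3. In a fit restricted to these 2 groups, limma called none of the 8 genes and 0.061% of all genes tested, against 3 of the 8 and 21.4% in the fit over all groups. At an unadjusted p under 0.05 the fit over all groups called 5 of the 8, where 39.1% of all genes tested passed.

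Recovery week 19 against HF week 5 asks which of these genes moved once induction had ended. Of the 8 genes tested, 4 fell (Sfrp2, Wif1, Dkk3 and Fzd2) and none rose, where 12.0% of all genes tested were lower and 12.3% higher, and the median was -0.95 over the 8 genes and -0.04 over all genes tested. Without HF week 5 library 1, Wif1 and Dkk3 fell, where 5.27% of all genes tested were lower. In Recovery weeks 7 to 13 against HF week 5, Frzb, Wif1 and Dkk3 fell, where 10.9% of all genes tested were lower. These comparisons share the HF week 5 libraries with that against Control week 19, so the opposite signs are not independent of one another.

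In Recovery week 19 against Control week 19 limma called none of the 8 genes, where 0.0235% of all genes tested were higher at an adjusted p under 0.05. At an unadjusted p under 0.05 Sfrp1 was higher, where 2.01% of all genes tested were. In the exact two-sided permutation test of single genes over 252 splits, Sfrp1 and Fzd2 had p = 0.0159, Dkk3 had p = 0.0317 and the 5 others had p from 0.175 to 0.802, unadjusted for the 8 genes, and the smallest p this test can give was 0.00794. The share of all genes under 0.05 in this permutation test was not computed. Fzd2 differed by 0.26 on the log2 scale (95% interval -0.23 to 0.74) and Dkk3 by 0.47 (-0.90 to 1.84). The intervals of Sfrp2 (-0.50 to 0.79), Frzb (-0.26 to 0.72), Sfrp5 (-1.35 to 1.20) and Fzd1 (-0.34 to 0.51) also held 0. These intervals rest on a spread shared by all groups of the fit, HF week 5 library 1 included. Without that library the interval was -0.19 to 1.13 for Dkk3 and -0.66 to 0.50 for Sfrp5. In Recovery weeks 7 to 13 against Control week 19 none was called either, where 0.0549% of all genes tested were higher. At an unadjusted p under 0.05, Sfrp1 (0.55 on the log2 scale, 95% interval 0.16 to 0.93) and Fzd2 (0.44, 0.01 to 0.87) were higher, where 3.36% of all genes tested were. Dkk3 differed by 0.76 (-0.46 to 1.98). Without HF week 5 library 1 its interval was 0.18 to 1.34 (limma, unadjusted p = 0.0136, adjusted p = 0.415).

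Other genes of the Wnt pathway were taken from 8 lists of ligands, receptors, co-receptors, inhibitors, R-spondin receptors, secretion factors, transducers and target genes, of which 44 genes passed the filter. In HF week 5 against Control week 19, 9 of the 44 were higher and 3 lower, where 11.6% of all genes tested were higher and 12.4% lower, and the median log2 fold change was 0.09 against 0.04 over all genes tested. Among the 9 were Wnt4 and Nkd1, with means of 0.597 and 0.530 FPKM over the libraries. Wnt4 was below the minimum for testing without HF week 3, and Nkd1 without HF week 5 library 1. Both were thus tested through libraries in which they were high. Among the other inhibitors, 2 of 3 tested rose: Apcdd1, a membrane protein that binds Wnt ligands, by 1.39 on the log2 scale (adjusted p = 0.00055) and Sost, which acts on the co-receptors, by 0.97 (adjusted p = 0.04996). Sost passed in none of the 8 fits that each left out a library, with adjusted p from 0.0549 to 0.155. Apcdd1 was at 6.67 ± 1.90 FPKM (SD, n = 3) in HF week 5, 2.23 ± 0.631 (n = 5) in Control week 19 and 2.55 ± 0.628 (n = 5) in Recovery week 19. It fell by 1.22 from HF week 5 to Recovery week 19 (adjusted p = 0.00142) and was called without HF week 5 library 1 in both comparisons.

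Of 5 Wnt ligands tested only Wnt4 passed, with a rise of 1.05 on the log2 scale in HF week 5 (adjusted p = 0.0222), and it did not pass without library 1 (0.42, adjusted p = 0.246, within 0.00855 to 0.246 over 14 alternatives). In the remaining alternatives Wnt4 was below the minimum for testing. Of 5 other Frizzled receptors Fzd6 rose by 0.39 (adjusted p = 0.00738, and 0.0466 without library 1). Of 5 co-receptors Ptk7, a receptor-like partner of the branch without β-catenin, rose by 0.74 (adjusted p = 0.0290) and Kremen1, a receptor through which Dickkopf proteins act on Lrp6, fell by 0.80 (adjusted p = 0.0204). Of the 8 fits that each left out a library, Ptk7 passed in 4 (adjusted p from 0.0279 to 0.222) and Kremen1 in 5 (0.00139 to 0.203), and neither passed without HF week 5 library 1. None of 3 R-spondin pathway genes and neither of the secretion genes was called: the receptor genes Lgr6 and Lgr4 differed by -0.58 and -0.05, and Wls and Porcn, which carry and lipid-modify Wnt ligands, by 0.06 and 0.55.

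Of 13 transducers, Dvl3, which relays the signal of Frizzled receptors, fell by 1.91 on the log2 scale (adjusted p = 0.000742), from 8.45 ± 3.49 FPKM (SD, n = 5) in Control week 19 to 1.72 ± 0.422 (n = 3) in HF week 5. It stood at 8.96 ± 3.00 (n = 5) in Recovery week 19. The kinase gene Gsk3a fell by 0.55 (adjusted p = 0.00924, and 0.0934 without library 1) and Tcf7l2, a transcription factor partner of β-catenin, rose by 0.56 (adjusted p = 0.00333). Of 8 genes listed as targets, 3 rose: Wisp2 by 1.90 (adjusted p = 0.00185), the adhesion receptor gene Cd44 by 1.22 (adjusted p = 0.000975) and Nkd1, a feedback inhibitor, by 0.62 (adjusted p = 0.00806). Without library 1 the adjusted p was 0.00863 for Dvl3, 0.0386 for Tcf7l2, 0.0173 for Wisp2 and 0.0140 for Cd44. Over 18 alternatives it ran from 2.42e-05 to 0.0111 for Dvl3, 0.00156 to 0.0386 for Tcf7l2, 0.00120 to 0.0173 for Wisp2 and 0.000309 to 0.0140 for Cd44. Axin2, the target most used as a readout of the β-catenin branch, differed by 0.27 (adjusted p = 0.437). Of the 12 called genes, 6 were called also without HF week 5 library 1, 5 were not, and Nkd1 then fell below the filter. In Recovery week 19 against HF week 5, 7 of the 44 were higher and 6 lower, near the 12.3% and 12.0% of all genes tested, and in Recovery week 19 against Control week 19 limma called none after adjustment and 3 before it, where 2.88% of all genes tested passed before it.

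The genes whose levels over the 24 libraries were most like those of each member were found by the Pearson r of log2(FPKM + 0.5), as a description. For Sfrp1 they were Scpep1 (r = 0.921), Pdgfra (0.916) and Lrp1 (0.915), for Sfrp2 Bgn (0.947), Mfap4 (0.933) and Pamr1 (0.931), and for Frzb Sulf1 (0.960), Tmem45a (0.955) and Fstl1 (0.947). All 9 had an r of 0.860 to 0.915 over the 21 libraries without HF week 3 and HF week 5 library 1. For Fzd2 they were Tgfb2 (0.883), Ptk7 (0.846) and Ifnar1 (0.818), with 0.815, 0.775 and 0.706 over the 21 libraries, and for Dkk3 Anxa8 (0.965), Ptk2b (0.962) and Rab33a (0.960), which had an r of 0.827, 0.829 and 0.789 over the 21 libraries. For Wif1 the closest was Cacna1g (0.700), lower than for any other member, followed by Prrt4 (0.661) and 9530026P05Rik (0.647), with 0.646, 0.518 and 0.470 over the 21 libraries. For Sfrp5 and Fzd1 the likeness was lower without the 3 libraries: Cd207 (0.901), Tnni1 (0.872) and Nudt4 (0.850) had an r of 0.399, 0.150 and 0.531 with Sfrp5 over the 21 libraries, and Creb3l2 (0.923), Ptpn1 (0.921) and Col23a1 (0.915) of 0.532, 0.591 and 0.290 with Fzd1.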

How the data were processed

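Poly(A) RNA of mouse hearts was sequenced from both ends. The authors aligned the reads with TopHat to MGSCv37 (mm9) and computed the deposited FPKM with Cuffdiff, 1 column for each library; the gene annotation is not given in the sources used here. The submitters' processing notes name TopHat2, Cuffdiff and mm9. Each column was assigned to a group by its name. The 5 columns that a name places in Control week 5 outnumber its 4 labelled samples and were not used, so that Control week 19 stands for control. Recovery week 9 has 2 columns and 3 labelled samples. Library numbers are not tied to labelled animals, and p-values measure the spread between libraries.

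From the FPKM, log2(FPKM + 0.5) was taken, genes under a mean of 0.5 over the 24 libraries were left out, and the other 12,759 were fitted in limma 3.58.1 (R 4.3.3) with a mean for each of 8 groups, 16 residual degrees of freedom and eBayes with a trend. Tests were two-sided, with Benjamini-Hochberg adjustment over all genes tested. Recovery weeks 7 to 13 entered as the equal-weight mean of 4 group means. Tables and figures were made with Python 3.11.15, pandas 2.3.3, numpy 2.4.6 and matplotlib 3.10.9. On simulated data for HF week 5 against Control week 19, limma recovered 70% of 100 genes set to a log2 change of 1 and 98% of 100 set to 2 among 12,759 genes, none in the wrong direction, with 8 of 12,559 unchanged genes also called; 5.49% of the unchanged genes had an unadjusted p under 0.05. The simulated noise was normal, with the same spread of a gene in every group. It held no outlying library such as HF week 5 library 1, so these rates do not cover that case.

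The 10 members and the lists were chosen with earlier results of these data known. From each pathway list the text names up to 4 called genes with the largest change in HF week 5 against Control week 19, or up to 2 with the highest mean where none was called. For each member tested it names the 3 genes most alike by Pearson r. Axin2 was named after its values were seen. Alternatives were other pseudocounts (0.1 and 1), filters (none, mean of at least 1), scalings, fits and thresholds, and leaving out each library in turn; fits without the HF week 3 libraries, with or without HF week 5 library 1, were added after seeing the data.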

Additional observations from a re-analysis of the deposited data

Results flagged for a closer look

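Of 20 sets of 5 libraries, each of 1 gene in Control week 19 or Recovery week 19, 2 held a library far from the others by the gap to its neighbour over the range, which chance gives in about 1 in 20 sets without ties. Dkk3 in Control week 19 was at 0.750 FPKM in library 2 and at most 0.432 in the other 4, a gap of 0.822 of the range. Dkk2 in Recovery week 19 was at 0.0274 FPKM in library 1 and listed at 0 in the other 4, where any value above 0 gives a gap of the whole range by construction, so that it is given as a value only.

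The HF time points differed from one another in 3 genes by the test of the difference itself in limma. Frzb differed by -0.99 on the log2 scale (HF week 5 minus HF week 3, adjusted p = 0.0436), Wif1 by 1.87 (adjusted p = 0.00304) and Fzd1 by -1.56 (adjusted p = 0.00315). Wif1 was called in 12 of 13 alternatives, Fzd1 in 11 and Frzb in 6. The atrial marker sums of these libraries were 7740 and 14053 in HF week 3 and 39736, 417 and 17.0 in HF week 5, and their part in these differences was not tested.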

How the results depend on the processing

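Depth is unknown, so that the counting error of values near 0 FPKM could not be estimated, and groups of 2 and 3 libraries limit what can be called. No paired analysis was possible because the columns carry no replicate letters of the labelled samples. Of the counts of members called, 128 values under alternatives stayed within 1.5 times and 16 did not. Of the values of single genes, 1529 kept direction and side of the threshold, 88 no longer passed, 45 newly passed and 33 changed sign. Other than by fewer samples or a less strict threshold, the cause was not tested.

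At an unadjusted p under 0.05 the members called were 1 in Recovery week 19 and 2 in Recovery weeks 7 to 13 against Control week 19 (2.88% and 6.9% of all genes tested), 5 in HF week 5 against HF week 3 (39.1%) and 6 in Recovery weeks 7 to 13 against HF week 5 (36%). With only the groups compared, 0 were called in HF week 5 against HF week 3. Fits that each left out 1 library gave 2 to 6 in HF week 5 against Control week 19, with 2 without HF week 5 library 1 (10.7% of all genes tested). They gave 2 to 4 in Recovery week 19 against HF week 5, with 2 without HF week 5 library 1 (12.2%) or Recovery week 19 library 1, 3 or 4 (22.9%, 20.2% and 20% of all genes tested). They gave 1 to 5 in HF week 5 against HF week 3, with 1 without HF week 3 library 1 (1.31% of all genes tested) and 5 without HF week 3 library 2 (53%) or HF week 5 library 1 (23.7%), and 2 to 5 in Recovery weeks 7 to 13 against HF week 5, with 5 without HF week 5 library 2 (21.2%). Without HF week 3 and HF week 5 library 1, 4 were called in HF week 5 against Control week 19 (20.2% of all genes tested), 2 in Recovery week 19 against HF week 5 (22.2%) and 3 across the groups (14.2%).

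None of the values that changed sign was called with all libraries. With median centring they were Fzd1 in HF week 5 against Control week 19 (-0.019) and Lgr4 in Recovery week 19 against HF week 5 (0.018), and with quantile normalization the same 2 (-0.11 and 0.055) and Fzd1 in Recovery weeks 7 to 13 against HF week 5 (0.074). Without HF week 3 and HF week 5 library 1 they were Sfrp5 (-0.27), Fzd1 (-0.29) and Wls (-0.17) in HF week 5 against Control week 19, Sfrp5 (0.19) and Wls (0.17) in Recovery week 19 against HF week 5, and Fzd1 (0.24) in Recovery weeks 7 to 13 against HF week 5. Leaving out each library in turn, the log2 fold changes in HF week 5 against Control week 19 ran from -0.27 to 2.40 for Sfrp5, -0.29 to 0.21 for Fzd1, -0.17 to 0.22 for Wls and -0.085 to 0.0023 for Lgr4. In Recovery week 19 against HF week 5 they ran from -2.47 to 0.19 for Sfrp5, -0.12 to 0.38 for Fzd1, -0.22 to 0.17 for Wls and -0.11 to 0.013 for Lgr4. In Recovery week 19 against Control week 19 they ran from -0.027 to 0.24 for Sfrp2, -0.25 to 0.036 for Sfrp5, -0.15 to 0.082 for Wif1 and -0.0016 to 0.16 for Fzd1. They ran from -1.17 to 0.30 for Wif1 in HF week 3 against Control week 19, from -1.38 to 0.081 for Sfrp2 and -0.34 to 0.97 for Fzd2 in HF week 5 against HF week 3, and from -0.25 to 0.24 for Fzd1 in Recovery weeks 7 to 13 against HF week 5.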
